A study of Caenorhabditis elegans with 4 samples.

Results

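The left piRNA domain of chromosome IV is the stretch from 4.5 to 7 Mb in which genes for piRNAs, small RNAs of the worm germline, lie close together. It was studied here as a set of regions bound by GEI-11 in whole Caenorhabditis elegans hermaphrodites at the L3 larval stage. A region called on the merged ChIP reads belonged to the domain if its midpoint lay on chromosome IV from 4500000 up to 7 Mb, in WS220 coordinates counted from 1. This rule uses position alone and gave 257 of the 6192 regions of the combined list. The same span held 185 of the 4368 regions called on ChIP replicate 1 and 112 of the 2617 regions called on ChIP replicate 2.

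GEI-11, also called SNPC-4, is a worm subunit of the complex that binds promoters of small nuclear RNA genes. In the germline it is also needed for piRNA transcription, where it acts with PRDE-1. Worm piRNA genes are short units, most with a promoter of their own, and most of them lie in a pair of broad domains on chromosome IV. The piRNAs made from them are loaded onto the Argonaute protein PRG-1, which finds foreign transcripts for silencing.

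The study compared chromatin precipitated with goat antibodies against GFP (2 samples) with input DNA, the sheared chromatin before precipitation (2 samples). All 4 samples came from strain OP179, grown at 20 °C and fixed with 2% formaldehyde. The worms carried the unc-119(ed3) mutation and the bombarded transgene wgIs179, which holds unc-119(+) as rescue and gei-11 fused to TY1, EGFP and 3xFLAG tags. The labels name no change to the native gei-11 gene, no untagged control strain, and no source that separates the replicates beyond their number, so they may be technical replicates. Germline and body cells were not separated, and fewer bound cells cannot be told apart from less binding per cell. ChIP replicates 1 and 2 had 3773496 and 3560372 reads, against 8331974 and 7222788 reads in input replicates 1 and 2. A region is described below by its width and by its strength, which is −log10 of the q-value the authors deposited for it. Strength depends on depth and ranks regions within a list. A region of one list was found in another if the lists overlapped there by at least 1 bp.

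The domain held called regions along its whole length, unevenly spaced. The first member lay at 4506778 to 4506997 and had a strength of 3.99, and the last lay at 6958719 to 6959097 and had a strength of 3.36. Just outside the bounds, the nearest regions lay at 4482790 to 4482989, with a strength of 2.58, and at 7012742 to 7012969, with a strength of 6.30. These 4 regions at the edges were all found in replicate 1 and not in replicate 2. Neither bound of the domain thus coincided with a strong region. Over the 257 members strength ran from 2.01 to 118, with a median of 4.12 and an interquartile range of 2.79 to 8.72, against a median of 4.14 and an interquartile range of 2.78 to 7.63 over all 6192 combined regions. In the domain 56 members, or 21.8%, reached a strength of 10, and the weakest of them was number 1032 of the 6192 combined regions. Of these members, 5 reached 50, and the weakest of the 5 was number 76.

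**Figure D1:**
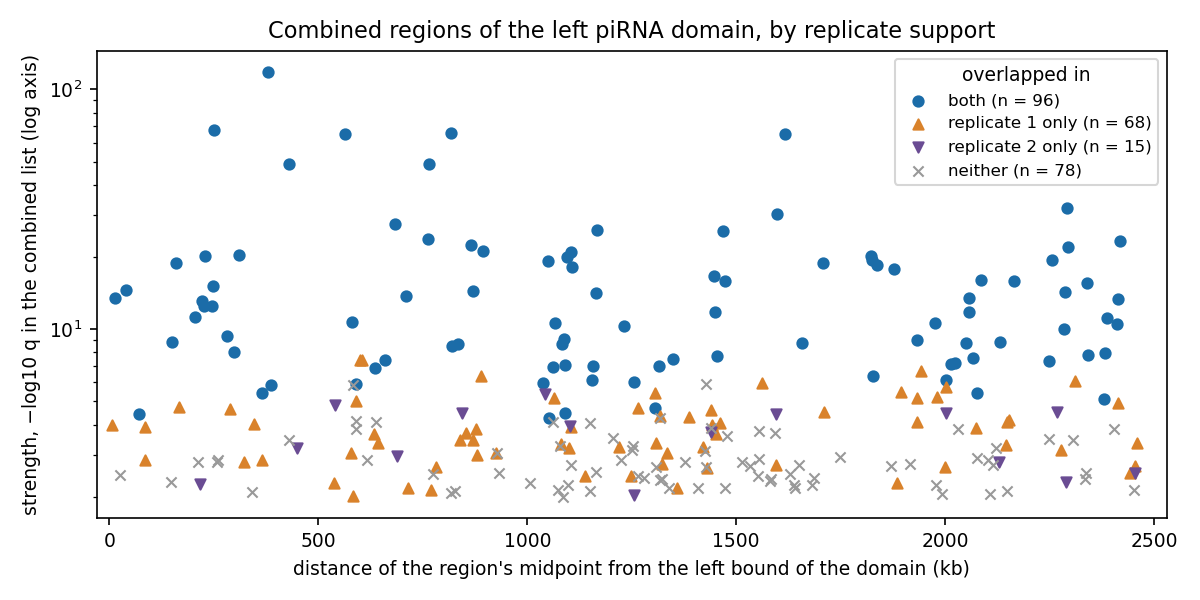
Strength of each of the 257 combined regions, as −log10 q on a log axis, against the distance of its midpoint from the left bound of the domain in kb. Symbols give the replicate lists that overlap the region: the 96 found in both replicates fill the upper part of the plot, and the 78 found in neither stay at or below 5.91.

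The strongest sites of the domain were among its wider members, and the same 7 stood at the top in all 3 lists. The strongest, at 4880423 to 4881134, was 712 bp wide and reached a combined strength of 118, with 66.7 for replicate 1 and 75.1 for replicate 2. It was number 35 in the whole combined list, number 42 in replicate 1 and number 39 in replicate 2, so its place was close to the same in the 3 lists. A group of 4 regions of nearly equal combined strength followed. The first of these, at 4749740 to 4750265, had strengths of 67.5, 47.7 and 38.0 in the combined, replicate 1 and replicate 2 lists. The second, at 5317100 to 5317588, had strengths of 65.6, 40.6 and 43.4 in the same order. The third, at 5063310 to 5063826, had strengths of 65.0, 39.6 and 40.1. The fourth, at 6117571 to 6118177, lay far to the right of the others and had strengths of 65.0, 38.5 and 31.2. Replicate 1 gave the higher value at both ends of this group of 4 and replicate 2 gave it for those between. A further pair, at 4930668 to 4931086 and 5264680 to 5265168, had combined strengths of 48.9 and 48.7. Of these 7 strongest regions, 6 lay left of the middle of the domain, against 120 of all 257 members (46.7%). After them the next strength was 32.0, at 6790364 to 6790866.

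All of the 25 strongest members were found in both replicates. Their strengths ran from 19.2 to 118 in the combined list, with a median of 23.9, from 5.58 to 66.7 in replicate 1, with a median of 13.5, and from 7.13 to 75.1 in replicate 2, with a median of 11.8. Replicate 1 gave the higher strength for 18 of the 25. Their widths ran from 355 to 1372 bp with a median of 517 bp, and they held 18.5% of the bases under all members. By position, 16 of the 25 lay left of the middle of the domain, against 46.7% of all members. A lean of strong regions to the left was not tested. The leftmost, at 4727843 to 4728197, was also the narrowest and had strengths of 20.1, 10.3 and 9.55 in the combined, replicate 1 and replicate 2 lists.

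Below the leading 7, strength fell off gradually. The region at 5183634 to 5184164 had strengths of 27.4, 16.2 and 10.6 in the combined, replicate 1 and replicate 2 lists, and the one at 5966891 to 5967578 had 25.6, 14.0 and 13.3. Near the right end of the domain the region at 6919325 to 6919683 had 23.3, 13.3 and 10.2. In these 3 the order of the replicates was the same, with replicate 1 higher. A further 2 regions, at 5364094 to 5364512 with combined, replicate 1 and replicate 2 strengths of 22.5, 11.9 and 11.9, and at 5394717 to 5395103 with 21.2, 10.1 and 12.6, differed from these: the replicates were nearly equal in the first, and replicate 2 was higher in the other. The region at 5604329 to 5604988 had 21.0, 13.5 and 7.21, and that at 4810357 to 4810796 had 20.4, 12.3 and 8.02. The last of the 25 by strength were at 6756296 to 6756801, with 19.4, 10.9 and 9.32, and at 5548697 to 5549259, with 19.2, 9.52 and 7.13. All of these values were below those of the leading 7 in every list.

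Among these 25, the region at 5666338 to 5667709 was the one on which the replicates differed most in rank. It was the widest member, at 1372 bp, and had a combined strength of 25.8. In replicate 2 it was called as a single region of 1284 bp with a strength of 13.8, number 217 in that list. In replicate 1 it was overlapped by 2 regions, the stronger of which was 265 bp wide with a strength of 5.58, number 1107 in that list. The other members named for width were narrower. They were 930 bp wide at 5368751 to 5369680, 889 bp at 6096963 to 6097851, 798 bp at 5973771 to 5974568 and 793 bp at 5593629 to 5594421. All of these were found in both replicates, and the first of them was overlapped by 2 regions in replicate 2.

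Some of the 25 strongest lay close to another of them. There were 3 pairs with midpoints under 5000 bp apart, which together made up 6 of the 25. How often strong regions elsewhere form such pairs was not tested. The first pair, at 5261673 to 5262255 and 5264680 to 5265168, had midpoints 2960 bp apart and strengths of 23.9 and 48.7. The second pair, at 6321586 to 6322058 and 6323603 to 6324018, had midpoints 1988 bp apart and nearly the same strength, 20.2 and 19.4. The third pair, at 6790364 to 6790866 and 6792709 to 6793400, had midpoints 2439 bp apart and strengths of 32.0 and 22.0.

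**Figure D2:**
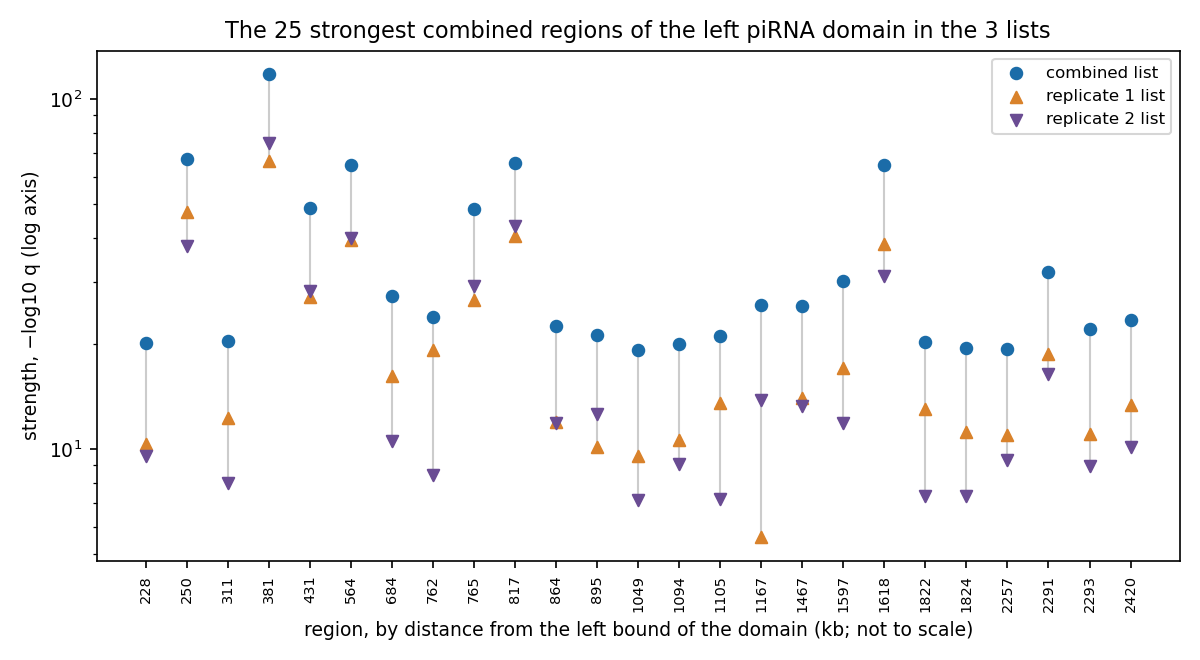
Strength of the 25 strongest members as −log10 q, on a log axis, in the combined list (circles), the replicate 1 list (upward triangles) and the replicate 2 list (downward triangles), ordered by distance from the left bound of the domain. Lines join the values of a region, and the region at 1167 kb is the one with the lowest replicate 1 value, 5.58.

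Replicate support in the domain was like that of the whole list. Both replicates overlapped 96 of the 257 members, or 37.4% (95% exact interval 31.4 to 43.6%), against 35.2% of all combined regions. A further 68 members (26.5%, against 28.1% of all) were found in replicate 1 only, 15 (5.84%, against 6.09%) in replicate 2 only and 78 (30.4%, against 30.7%) in neither. These shares lay near the series-wide ones, so support did not set the domain apart. The 96 members found in both had a median strength of 11.8 and a median width of 420 bp. The 68 found in replicate 1 only had medians of 3.65 and 211.5 bp, and the 78 found in neither had medians of 2.70 and 175.5 bp. In every one of the 96 the combined strength was above that of either replicate list, and 82 of them were wider than in either.

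Support followed strength in the domain as it did over the whole list. With all 6192 combined regions split by rank into 10 classes of about equal size, the strongest class held 36 members, or 14.0% (95% exact interval 10.0 to 18.9%), against 10.0% of all combined regions. Both replicate lists overlapped all 36, and likewise 100% of the combined regions in that class. In class 2 all 23 members were found in both, against 97.6% of all regions, and in class 3 it was 23 of the 26 members (88.5%, against 82.6% of all). The share was 10 of 22 in class 4 (45.5%, against 48.8% of all) and 4 of 20 in class 5 (20.0%, against 19.1% of all). None of the 130 members in classes 6 to 10 was found in both. Over all combined regions the share found in both was 3.71% within class 6 and at most 0.162% within each of classes 7 to 10. The combined list was made from the merged ChIP reads of both replicates, so support and strength are not independent.

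The strongest members that lacked support in replicate 2 were of middling rank. They lay at 5103333 to 5103795, with a combined strength of 7.47 and a replicate 1 strength of 5.78, and nearby at 5100135 to 5100533, with 7.46 and 4.69. The next were at 6442083 to 6442686, with 6.67 and 4.49, at 5388641 to 5388990, with 6.38 and 4.61, and at 6809607 to 6810221, with 6.10 and 5.51. All 5 were thus found in replicate 1 only. The 15 members found in replicate 2 only reached no more than 5.37 in the combined list.

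Where regions of the replicate lists overlapped in the domain, most of their midpoints lay close together. Of the 112 replicate 2 regions, 96 overlapped a replicate 1 region, which is 85.7% (95% exact interval 77.8 to 91.6%), against 84.5% over the whole list. In the other direction 97 of the 185 replicate 1 regions, or 52.4% (95% exact interval 45.0 to 59.8%), overlapped replicate 2, against 51.1% over the whole list. In 96 cases the regions were mutual best overlaps. Their midpoints were a median of 25 bp apart (interquartile range 10 to 54.5 bp), against 30 bp over all 2197 such pairs. The largest distance in the domain was 452 bp. Pairs had to overlap, so the matching itself limits these distances. In the domain 69 pairs, or 71.9%, lay under 50 bp apart, against 66.8% of all pairs. Spearman's rho across these 96 pairs was 0.80 for strength and 0.69 for width. It is given as a description only, since the pairs share libraries and the same combined input signal. Replicate 1 was the wider of the pair in 45 of 96 cases and the stronger in 67 of 96. Over the whole list it was the wider in 1065 of 2197 pairs and the stronger in 1503. Single-list calls were weak: replicate 1 regions not found in replicate 2 had a median strength of 2.53, against 6.42 for those that were. Over the whole list these medians were 2.62 and 5.34.

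A small part of the replicate regions had no counterpart in the combined list. In the domain these were 20 replicate 1 regions, or 10.8% (95% exact interval 6.73 to 16.2%), against 8.45% of all replicate 1 regions, and 1 replicate 2 region, or 0.893%, against 0.726% of all. The strongest of the 20 lay at 5432638 to 5432727, with a strength of 3.86, at 6464367 to 6464608, with 3.85, and at 6335228 to 6335424, with 3.46. The next had strengths of 3.00, at 5082651 to 5082671, and 2.71, at 4510941 to 4511049. The single replicate 2 region lay at 6501665 to 6501852 and had a strength of 2.65. No strong replicate call in the domain was therefore missing from the combined list as analysed here.

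The domain was denser than the other chromosomes but not denser than the sequence on either side of it. It held 103 regions per Mb (95% exact Poisson interval 90.6 to 116), against 103 per Mb (89.4 to 118) in the 1 Mb on each side, from 3.5 to 4.5 Mb and from 7 to 8 Mb. The ratio of the domain to its flanks was 0.998 (95% exact conditional interval 0.828 to 1.21). It was 1.15 (0.911 to 1.45) in replicate 1 and 0.905 (0.684 to 1.20) in replicate 2, so both intervals included equal density and the replicates fell on opposite sides of it. Against the 52.5 per Mb of the other chromosomes the ratio was 1.96 (1.72 to 2.22). The rest of chromosome IV, flanks included, held 91.0 per Mb, and the right piRNA domain held 170 per Mb. Their ratios to the other chromosomes were 1.73 (1.62 to 1.85) and 3.23 (2.94 to 3.55), so the excess was not particular to the left domain. The intervals reflect counting error alone, as if each region were called independently of its neighbours.

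The same held for most subsets of regions. Regions found in both replicates had a density of 38.4 per Mb in the domain, against 38.5 per Mb in the flanks and 19.3 per Mb on the other chromosomes. Regions of the strongest rank class had a density of 14.4 per Mb in the domain (95% exact Poisson interval 10.1 to 19.9), against 9.50 (5.72 to 14.8) in the flanks. Their ratio of 1.52 had an exact interval of 0.847 to 2.80 and was not separated from equal density. Against the 5.25 per Mb of the other chromosomes the ratio for that class was 2.74 (1.89 to 3.86). The right domain held 16.3 per Mb of that class and the rest of chromosome IV 8.44 per Mb. The flanks held no region stronger than 42.1, a value that 7 members of the domain passed. This limit is the flanks' own maximum, and the share of all combined regions above it was not computed. Regions above it also occurred elsewhere. Strength reached 118 in the domain, 144 in the right domain, 285 in the rest of chromosome IV and 288 on the other chromosomes.

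Very narrow regions were the exception. In the domain 29 members, or 11.3% (95% exact interval 7.69 to 15.8%), were under 50 bp wide, against 7 of 206 in the flanks, or 3.40% (1.38 to 6.88%), and 5.51% of all combined regions. Their density was 11.6 per Mb in the domain and 3.5 per Mb in the flanks, a ratio of 3.31 with an exact interval of 1.42 to 8.96. The right piRNA domain, from 14 to 17 Mb, had more of them, with 132 of 509 regions or 44.0 per Mb. The rest of chromosome IV, flanks included, had 77 of 1090, or 6.43 per Mb. The 29 members were between 1 and 48 bp wide with a median of 17 bp, and their strengths ran from 2.05 to 4.09. Replicate 1 overlapped 11 of them and replicate 2 none. Of all 341 combined regions this narrow, 104 were found in replicate 1 only and 10 in replicate 2 only. In the domain replicate 1 held 17 regions under 50 bp, or 9.19%, against 5.31% of its whole list. Replicate 2 held 1, or 0.893%, against 1.11% of its whole list, so its share was low in both. How far the peak caller sets such widths was not tested.

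**Figure D3:**
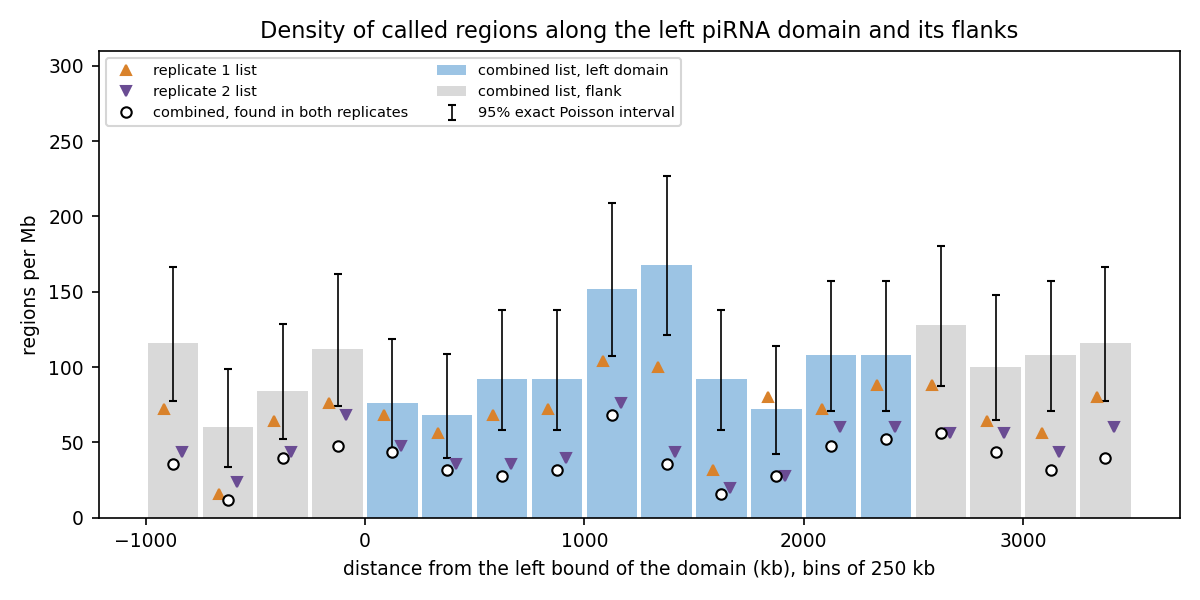
Density of regions in bins of 250 kb along the domain (blue bars) and its 1 Mb flanks (grey bars) in the combined list, with 95% exact Poisson intervals. Triangles give the densities in the replicate 1 and replicate 2 lists and open circles the combined regions found in both replicates, and the highest bars are the bins from 1000 to 1500 kb.

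Within the domain, density was highest near its middle. The 10 bins of 250 kb held, from left to right, 19, 17, 23, 23, 38, 42, 23, 18, 27 and 27 combined regions. The fifth bin, which starts at 5.5 Mb, held 38 and the sixth, which ends at 6 Mb, held 42, more than any of the other 16 bins of the domain and its flanks. Together these bins, picked after their values were seen, held 80 of the 257 members. That is 160 per Mb (95% exact Poisson interval 127 to 199), against 88.5 per Mb (75.9 to 103) over the rest of the domain. The replicate 1 list gave 102 per Mb (75.9 to 134) against 67.0 (56.1 to 79.4). The replicate 2 list gave 60.0 per Mb (40.5 to 85.7) against 41.0 (32.6 to 50.9). In both lists the exact intervals overlapped, but no interval of the ratio was computed, so the overlap does not show equal density.

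The 2 dense bins differed in what filled them. In the fifth bin, 17 of 38 regions were found in both replicates and 12 in neither. In the sixth bin, 9 of 42 were found in both and 17 in neither, and 8 were under 50 bp wide. The next bin, from 6 to 6.25 Mb, had the lowest support of all, with 4 of 23 regions found in both and 15 found in neither. Replicate 1 called 8 regions there and replicate 2 called 5, the fewest of any bin of the domain in each list. The region at 6117571 to 6118177, number 5 by strength in the domain, lay in this bin. The highest share with support, 11 of 19, was in the leftmost bin. On the larger scale the domain was balanced: 120 members, or 46.7% (95% exact interval 40.5 to 53.0%), lay left of its middle.

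Neighbouring members lay close together in runs parted by long empty stretches. The median distance between neighbouring midpoints was 5217.5 bp, the middle 50% lay between 1980 and 10887 bp, and the mean was 9578 bp. In the replicate lists the median was 7032 bp and 10612 bp for replicates 1 and 2. In the flanks the combined median was 4210 bp, in the right piRNA domain 3151.5 bp and on the other chromosomes 10027 bp. In the domain 31 of 256 distances, or 12.1%, were under 1000 bp. The share was 9.31% in the flanks, 17.3% in the right domain and 4.11% on the other chromosomes.

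Long gaps took up part of the domain. There were 7 distances over 40000 bp, a limit set after their values were seen, and together they spanned 473 kb or 18.9% of the domain. The longest had no combined region from the end of one member at 4950001 to the start of the next at 5037232. The next lay between 6664725 and 6747652, between 5431938 and 5507550, and between 6248717 and 6321586. Replicate 2 had no region inside any of these 4 gaps, and replicate 1 had 1 region in the longest and 1 in the one that starts at 5431938. Distances over 40000 bp also occurred elsewhere. The longest was 87332 bp here, 71507 bp in the flanks, 106770 bp in the right domain and 231148 bp on the other chromosomes. The share of sequence they spanned there was not computed.

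Runs of regions lay between the gaps. With neighbours joined where midpoints were under 5000 bp apart, the members formed 131 groups, of which 73 were single regions and 26 were pairs. The 32 groups of 3 or more held 132 members, or 51.4%. That share was not computed for the flanks, the right domain or the whole list, so such groups are not shown to be particular to the domain. The largest held 16 regions between 5573744 and 5607789, over 34046 bp. In that stretch 7 were found in both replicates and 5 in neither, and strengths ran from 2.01 to 21.0. The next held 6 regions between 5814335 and 5823556, over 9222 bp, with 1 found in both, 3 found in neither and a highest strength of 7.03. Both runs lay in the 2 bins picked for their high counts, to which the runs themselves add. Support was 7 of 16 in the larger run and 1 of 6 in the other, a difference that was not tested. Membership of a run went with no clear difference in support: 27 of 73 single regions (37.0%, 95% exact interval 26.0 to 49.1%) were found in both replicates, against 51 of 132 regions in groups of 3 or more (38.6%, 30.3 to 47.5%).

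Members were about as wide as other chromosome IV regions outside the right domain, and narrower than regions of other chromosomes. Their median width was 293 bp (interquartile range 156 to 403 bp), against 309 bp in the flanks and 369 bp on the other chromosomes. In replicate 1 the domain and the other chromosomes had medians of 281 and 351 bp, and in replicate 2 of 331 and 382 bp, so both replicate lists had the same order. Members of 500 bp or more numbered 39, and together all members covered 77728 bp, or 3.11% of the domain, against 3.5% of the flanks and 2.41% of the other chromosomes. Across the 257 members the Spearman correlation of width and strength was 0.82, a description over regions of the same libraries.

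**Figure D4:**
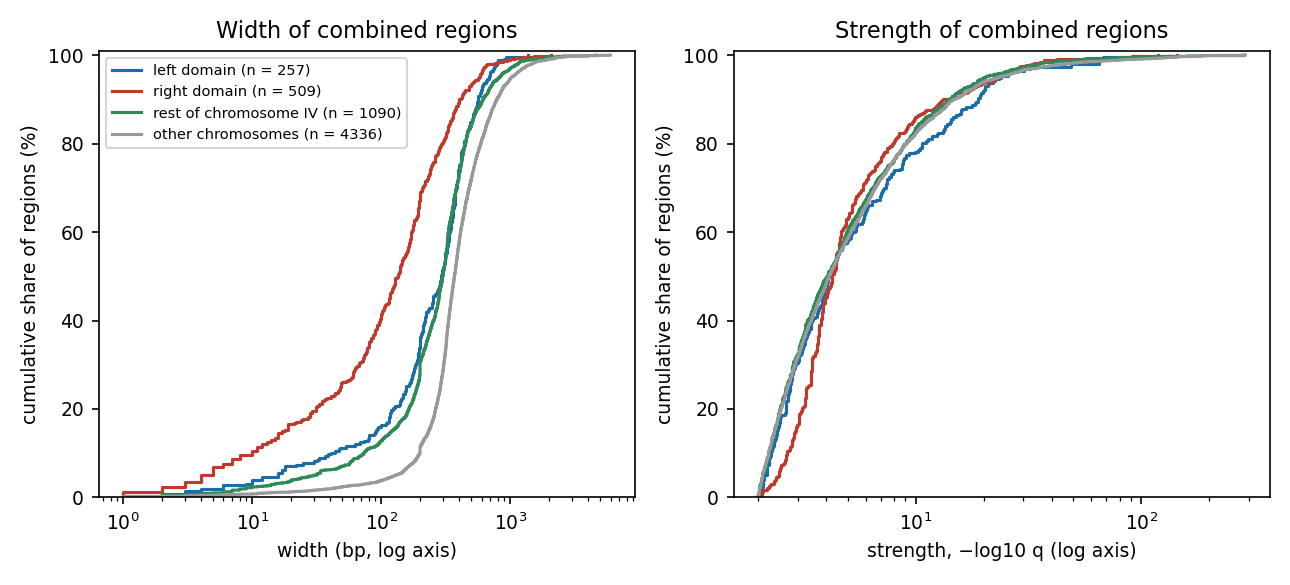
Cumulative share of combined regions by width in bp (left panel) and by strength as −log10 q (right panel), both on log axes, for the left domain, the right domain, the rest of chromosome IV and the other chromosomes. The width curve of the left domain runs near that of the rest of chromosome IV, with medians of 293 and 299.5 bp, and its strength curve lies lowest between about 10 and 20.

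Wide members had replicate support more often than wide regions of the other chromosomes, as did wide regions of the right domain and of the rest of chromosome IV. Of the 66 members of 400 bp or more, 84.8% were found in both replicates (95% exact interval 73.9 to 92.5%), against 90.6% (79.3 to 96.9%) of 53 such regions in the right domain, 75.4% (70.2 to 80.2%) of 301 in the rest of chromosome IV and 54.3% (52.0 to 56.6%) of 1858 on the other chromosomes. Between 200 and 399 bp the share was 38.5% (29.1 to 48.5%) of 104 members, against 55.8% (46.1 to 65.1%) of 113 regions in the right domain, 30.4% (26.3 to 34.7%) in the rest of chromosome IV and 28.3% (26.3 to 30.3%) on the other chromosomes. Below 200 bp none of 58 members from 50 to 199 bp and none of 29 under 50 bp was found in both, which allows shares of up to 6.16% and 11.9% by the exact interval. The median strength of the wide members was 13.8, against 19.8 for wide regions of the right domain, 9.54 in the rest of chromosome IV and 6.51 on the other chromosomes. Support and strength at a given width thus moved together, and their parts were not separated.

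**Figure D5:**
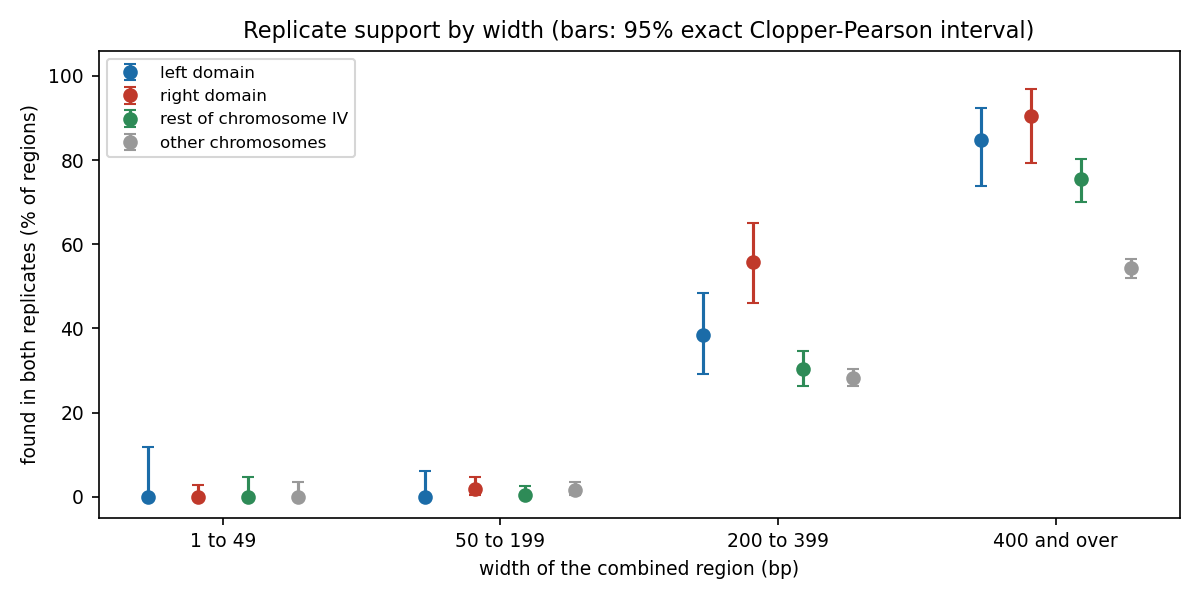
Percentage of combined regions with support in both replicates, by class of width in bp for the left domain and 3 other areas, with 95% exact Clopper-Pearson intervals. In the class of 400 bp and over the left domain lies at 84.8%, the right domain at 90.6% and the other chromosomes at 54.3%, and the interval of the other chromosomes meets neither of the domain intervals.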

How the data were processed

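Chromatin of whole L3 worms was sequenced after anti-GFP precipitation (2 samples) and without it (2 input samples). Regions were called by the authors with PeakSeq, per the file headers, on merged ChIP alignments and on each ChIP replicate, with a combined input signal, per the deposited sample sheet. Each region carries the q-value the authors deposited, the largest of which is below 0.01. Read counts per library are those of the deposited sample sheet, and its uniquely mapped counts (2500000 and 2800000 ChIP, 6000000 for each input) look rounded. No source used here names the aligner or the settings of PeakSeq. Coordinates rest on the file headers, which name WS220, although the sample sheet names WS190, and comment lines record a change of build after calling, which altered the shape of no chromosome IV region.

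Midpoints, widths, −log10 q, overlaps of at least 1 bp and exact 95% intervals were computed with Python 3.11.15, pandas 2.3.3 and scipy 1.17.1, without filtering, and the overlap and interval code was tested on simulated data. The intervals cover counting error only, as if regions were independent of each other. Reads from PCR carry no molecular identifiers and can be copies. Input libraries have no value of their own in the lists and 2 ChIP replicates allow no test over samples, so no p-value is given. Length of the other chromosomes was taken to the last called region. Where several replicate regions overlapped a member, the strongest is given. Named regions are the 25 strongest and 5 widest members, the 5 strongest members not found in both replicates, those at the bounds, up to 5 per replicate list outside the combined list, and the 2 largest runs. The domain, these rules and the alternatives were chosen with earlier results of these data known. The only gene table used, WBcel235, is not of the build of the lists, so no gene is assigned to a region and no sequence is given.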

Additional observations from a re-analysis of the deposited data

How the results depend on the processing

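Of 79 alternatives to 10 values, 58 stayed within 1.5 times the number of regions, inside the exact interval where a share or ratio has one, or within 1 SD of the replicate lists for medians and covered bases, and 21 moved. The ratio of the domain to the other chromosomes stayed between 1.78 and 2.01, and that to its flanks between 0.905 and 1.15 (flanks of 0.5 and 2 Mb, added after seeing the data, gave 0.970 and 1.08). With the 3096 combined regions of smallest q, 127 members remained, of which 75.6% were found in both replicates, with a median width of 401 bp, a median strength of 8.72, a median spacing of 9675.5 bp and 2.25% of bases covered. These differ because weak regions were left out, and the share found in both replicates over all 3096 such regions was not computed. With combined regions found in both replicates only, 96 members remained, with medians of 420 bp, 11.8 and 14059 bp, 53.1% left of the middle and 1.83% of bases covered. Merging regions with gaps under 1000 bp raised the covered share to 4.03%, since the gaps then count. Without replicate 1 or 2, that is with a single replicate list, the number was 112 to 185, the median width 281 to 331 bp, the median strength 3.46 to 4.20, the median spacing 7032 to 10612 bp and the covered share 1.65 to 2.15%. The share of replicate 2 regions found in replicate 1, 85.7%, fell to 75.9% with 50% reciprocal overlap and rose to 92.4% among the regions of smaller q in each list. The cause was not tested. No paired analysis was possible because the lists give no values for single input libraries. Of the members, 30.4% overlapped neither replicate list. Absence from a replicate list does not show lack of binding, and how far depth limits such calls was not tested.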
